A study of Mus musculus with 4 samples.

Results

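The Gimap genes (GTPases of the immunity-associated protein family) were read on 4 Affymetrix Mouse Gene 1.0 ST arrays of *lal+/+* and *lal-/-* bone marrow cells. The family was selected on its measured values, because its members were lower as a group in *lal-/-* cells on these same arrays. The lower levels below are therefore a description. The calls of the common fit are counted for the members beside those of all genes, and no support is drawn from them. The members are the 8 genes *Gimap1*, *Gimap3*, *Gimap4*, *Gimap5*, *Gimap6*, *Gimap7*, *Gimap8* and *Gimap9*, of 19938 genes measured. Each has 1 probe set of its own, a group of array probes that the annotation assigns to this gene alone. Whether probes of close relatives, such as *Gimap3* and *Gimap5*, also bind each other's transcripts could not be checked without the probe sequences.

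Gimap proteins bind guanine nucleotides through a domain of the AIG1 type, related to that of the septins, and several of them are anchored in membranes of organelles. They are best known from lymphocytes, where they act in the survival of resting T and B cells. Mice that lack *Gimap5* lose peripheral T cells, and *Gimap1* is needed by mature lymphocytes. Their genes lie side by side in 1 cluster.

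LAL is lysosomal acid lipase, the enzyme that hydrolyses cholesteryl esters and triglycerides in lysosomes, and its gene is *Lipa*. The control group held 2 arrays of wild type mice (labelled WT, here *lal+/+*), and the other group held 2 arrays of knock-out mice (labelled LALKO, here *lal-/-*). All mice were 5 months old and had been back-crossed to FVB/N for 10 generations, and the labels name no treatment. The LAL deficiency is not stated to be limited to a cell type. The cells are called myeloid-derived suppressive cells (MDSCs). The labels describe them as CD11b and Gr-1 positive, whereas the methods of the study describe magnetic selection of bone marrow cells with an anti-Ly6G antibody. Neither source states which mice were pooled on an array, so the spread between the 2 arrays of a genotype may be technical.

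*Lipa* was lower in the arrays labelled LALKO. It was at 9.50 and 9.05 in *lal+/+* and at 7.37 and 7.49 in *lal-/-* on the log2 scale (log2 fold change -1.85, adjusted p = 4.17e-04 from limma). The *lal-/-* values were still above the background limit given below, and the exons that its probe set reads are unknown here. The antigen of the selection, encoded by *Ly6g*, was 7.37-fold higher in *lal-/-* cells. The 2 arrays of a genotype correlated at r = 0.984 (*lal+/+*) and 0.987 (*lal-/-*) over the probe sets, a correlation across genes and not across independent samples. To judge whether a level stands above background, 1035 probe sets of olfactory receptor genes, silent in most tissues, were used. The 95th percentile of their means was 6.79 on the *lal+/+* arrays and 6.29 on the *lal-/-* arrays. Their median level was lower by 0.22 on the log2 scale in *lal-/-*, where it had a value of 4.73 against 4.95. A level below the 95th percentile is called background level here.

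The genes stand in the order *Gimap8*, *Gimap9*, *Gimap4*, *Gimap6*, *Gimap7*, *Gimap1*, *Gimap5* and *Gimap3* on chromosome 6 in the RefSeq gene table of GRCm38.p6. *Gimap6* and *Gimap3* are read from the minus strand and the other members from the plus strand. The stretches upstream of *Gimap9*, *Gimap4* and *Gimap6* are shown because these neighbours had the smallest and the largest fitted differences among the members above background in *lal+/+* cells. They are the 250 bases before the RefSeq start, written from 5′ to 3′ on the strand of the gene, with CpG dinucleotides in capitals, at chr6:48675885-48676134 (plus strand) for *Gimap9*, chr6:48684328-48684577 (plus strand) for *Gimap4* and chr6:48708245-48708494 (minus strand) for *Gimap6*.
Gimap9: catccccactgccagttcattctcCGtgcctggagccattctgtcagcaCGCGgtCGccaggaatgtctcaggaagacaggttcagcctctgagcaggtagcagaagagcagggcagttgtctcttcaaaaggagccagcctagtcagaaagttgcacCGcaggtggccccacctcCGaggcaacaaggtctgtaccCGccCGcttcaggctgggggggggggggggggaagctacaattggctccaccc
Gimap4: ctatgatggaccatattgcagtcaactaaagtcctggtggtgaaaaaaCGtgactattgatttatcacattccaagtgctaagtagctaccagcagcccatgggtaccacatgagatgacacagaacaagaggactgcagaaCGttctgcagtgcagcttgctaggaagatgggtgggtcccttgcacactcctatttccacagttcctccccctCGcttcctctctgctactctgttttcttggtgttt
Gimap6: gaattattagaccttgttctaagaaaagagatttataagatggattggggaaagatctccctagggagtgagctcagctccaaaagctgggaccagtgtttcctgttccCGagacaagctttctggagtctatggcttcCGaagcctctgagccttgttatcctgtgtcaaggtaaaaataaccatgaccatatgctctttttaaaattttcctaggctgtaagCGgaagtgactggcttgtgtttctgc

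The *Gimap9* window holds 8 CpG dinucleotides and has a GC content of 61.2%. The windows of *Gimap4* and *Gimap6* hold 3 each, with a GC content of 47.6% and 43.6%. The other members, *Gimap8* with 2 starts included, hold 1 to 3, and the median over 32851 promoter windows of the table was 6. These windows were not measured by the arrays, and the link between CpG content and the differences below was not tested.

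Short sequence motifs of factors active in blood cells were searched on both strands of the same windows. The RUNX letters TGTGGT or TGCGGT occurred upstream of 4 of the 8 genes (*Gimap1*, *Gimap4*, *Gimap7* and *Gimap9*), and in 18.6% of all windows. The ETS letters GGAAGT occurred upstream of *Gimap5* and *Gimap6*, and in 19.7% of all windows. The SP letters GGGCGG occurred upstream of *Gimap7* and *Gimap9* (32.7% of all windows), and the TATA letters TATAAA upstream of *Gimap6* (12.4%). The GATA letters AGATAA, the E-box letters CAGCTG and the RBPJ letters GTGGGAA were in none of the members' windows. No set of letters searched was shared by all members. A match is no evidence of a bound factor.

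All 8 members had both *lal+/+* arrays above both *lal-/-* arrays, an arrangement that 24.1% of all genes showed. The log2 fold change (*lal-/-* minus *lal+/+*) ranged from -4.04 to -0.55, with a median of -2.13, beside a median of 0.08 over all genes. With a required fold of 2 or more and adjusted p-values below 0.05, the thresholds of the study, 6 members were called lower, as were 3.24% of all genes. Over all genes 1508 were called higher and 646 lower, a split that became 2619 and 467 with the arrays shifted to a common median. The members were chosen by this difference, so nothing is read from the count. With the *lal-/-* means of *Gimap4*, *Gimap6* and *Gimap3*, at background level in *lal-/-* only, set to the 95th percentile, the median was -1.87. *Gimap5*, at background level in both genotypes, kept its fitted value. In RNA of a whole cell preparation, fewer cells that express these genes and less RNA per cell cannot be told apart.

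**Figure D1:**
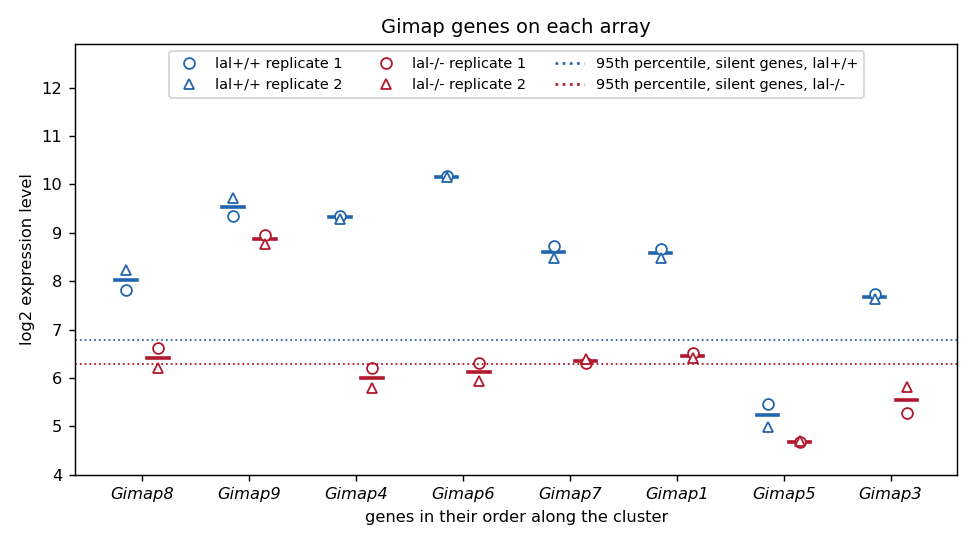
Log2 level of each Gimap gene on the 4 arrays after quantile normalization, in the order of the genes along the cluster. Points are single arrays, bars the mean of a genotype, and dotted lines the 95th percentile of silent genes in each genotype. *Gimap9* stays well above the lines in both genotypes, *Gimap5* lies below them in both, and the other members lie near or below the line in *lal-/-* cells.

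*Gimap6*, whose product binds the autophagy protein Gabarapl2, had the largest fitted difference of the family. It was at a log2 level of 10.17 and 10.15 on the *lal+/+* arrays and at 6.30 and 5.94 on the *lal-/-* arrays. The *lal+/+* arrays were almost equal and lay 3.85 above the higher *lal-/-* array. The mean was 10.16 ± 0.01 (SD, n = 2) in *lal+/+* and 6.12 ± 0.26 (SD, n = 2) in *lal-/-*, a log2 fold change of -4.04 (standard error 0.15). Since the *lal-/-* mean was at background level, the change of *Gimap6* is a bound under quantile normalization, at least 14.7-fold lower. With the arrays shifted to a common median, the fitted log2 fold change was -3.71, which falls short of that bound (3.87 on the log2 scale).

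*Gimap4* is known from the maturation and cell death of T cells. It read 9.35 and 9.29 in *lal+/+* and 6.21 and 5.79 in *lal-/-*. Both *lal-/-* arrays were at background level, and they lay further apart than the *lal+/+* pair. With a log2 fold change of -3.32 (standard error 0.16), *Gimap4* was at least 8.19-fold lower under quantile normalization. With a common median the fitted value was -3.01, just short of that bound (3.03 on the log2 scale).

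*Gimap7* and *Gimap1*, which are neighbours, had differences of nearly the same size. *Gimap7*, whose product can stimulate GTP hydrolysis by other Gimap proteins, read 8.73 and 8.47 in *lal+/+* and 6.32 and 6.38 in *lal-/-*, a log2 fold change of -2.25 (standard error 0.14). *Gimap1* read 8.67 and 8.49 in *lal+/+* and 6.52 and 6.40 in *lal-/-*, a log2 fold change of -2.12 (standard error 0.13). Neither gene showed any overlap of the genotypes, and their *lal-/-* means lay only 0.06 and 0.17 above the background limit. *Gimap3*, a close relative of *Gimap5* that is linked to the segregation of mitochondrial DNA, read 7.73 and 7.62 in *lal+/+* and 5.27 and 5.80 in *lal-/-*. Its log2 fold change was -2.14 (standard error 0.19), and with *lal-/-* cells at background level the gene was at least 2.62-fold lower under quantile normalization. The fold changes of *Gimap7* and *Gimap1* differed by 0.13, less than either standard error.

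*Gimap8*, the first gene of the cluster, encodes a larger protein with repeated GTP-binding domains. It read 7.81 and 8.23 in *lal+/+* and 6.63 and 6.20 in *lal-/-*. Its arrays differed by 0.42 within each genotype, and the genotypes were 1.19 apart at their closest. The log2 fold change was -1.61 (standard error 0.20), the smallest fitted value among the 6 members past the thresholds. Its *lal-/-* mean lay only 0.13 above the background limit.

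*Gimap9*, which lies between *Gimap8* and *Gimap4*, stood outside the thresholds. It read 9.35 and 9.71 in *lal+/+* and 8.96 and 8.78 in *lal-/-*, so that it was the member with a signal more than 2 log2 units above the background limit in *lal-/-* cells. The log2 fold change was -0.66 (standard error 0.16), and the fold of 1.58 was under the required 2. The scaling decided its size, which was -0.24 in the deposited values and -0.06 once the arrays had been set to 1 median. The next gene in the cluster, *Gimap4*, is read from the same strand, and its log2 fold change lay 2.65 further from 0.

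*Gimap5*, the member best known for keeping lymphocytes alive, could not be judged. Its probe set read 5.46 and 5.00 in *lal+/+* and 4.67 and 4.69 in *lal-/-*, at background level in both genotypes. The log2 fold change was -0.55 (standard error 0.17), beside a shift of -0.22 in the median of the silent genes. Without *lal+/+* replicate 1 it was -0.32. No statement on the *Gimap5* transcript follows from this probe set.

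**Figure D2:**
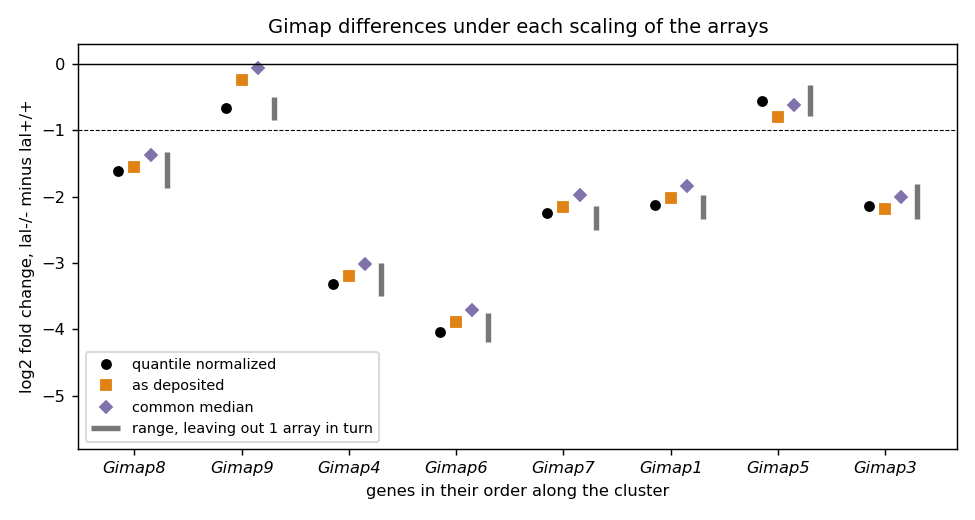
Log2 fold change of each Gimap gene with the arrays quantile normalized, as deposited, or shifted to a common median, and the range of the fold change when 1 array is left out in turn. The dashed line marks a fold of 2. The 6 members past the line stay past it in every setting drawn, and *Gimap9* moves from -0.66 to -0.06.

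Between arrays of 1 genotype, a comparison that the choice of the members did not use, the members did not all move in 1 direction. With 1 pair of arrays for each genotype, this cannot show whether the members vary together. On the *lal+/+* arrays 6 members were higher on replicate 1, by 0.01 (*Gimap6*) to 0.47 (*Gimap5*), while *Gimap8* and *Gimap9* were higher on replicate 2 by 0.42 and 0.35. On the *lal-/-* arrays *Gimap4*, *Gimap6*, *Gimap8*, *Gimap9* and *Gimap1* were higher on replicate 1 by 0.42, 0.36, 0.42, 0.18 and 0.11. *Gimap3* was higher on replicate 2 by 0.53, and *Gimap7* and *Gimap5* by 0.06 and 0.02. The median size of these differences over the members was 0.22 in *lal+/+* and 0.27 in *lal-/-*, beside 0.19 and 0.14 over all probe sets. Several members lie at background level in *lal-/-* cells, and *Gimap5* does so in *lal+/+* cells as well. Array differences carry little information there.

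The genes next to the cluster were compared to see where along the chromosome the difference began and ended. Of the 10 nearest measured genes, 5 on each side, 0 were called with limma (10.8% of all genes were called in either direction), and the median log2 fold change was 0.01. Of these genes 2 had an unadjusted p under 0.05, and both also passed the adjusted p without reaching a fold of 2. *Zfp775*, a zinc finger gene before *Gimap8*, read 6.81 and 7.17 in *lal+/+* and 6.38 and 6.08 in *lal-/-* (-0.76 on the log2 scale with a standard error of 0.17 and an adjusted p of 0.0162 in limma). *Tmem176b*, the membrane protein gene that follows *Gimap3*, read 7.40 and 7.42 in *lal+/+* and 6.832 and 6.997 in *lal-/-* (-0.50 with a standard error of 0.13 and an adjusted p of 0.0251 in limma). Its neighbour *Tmem176a* differed by 0.01 (adjusted p = 0.980 from limma), with *lal+/+* cells at background level. *Repin1*, *Aoc1* and *Rarres2* (-0.15, 0.11 and 0.32) did not pass either. Of the 10 genes, 7 were at background level in *lal+/+* cells, so a decrease there could not have been seen.

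**Figure D3:**
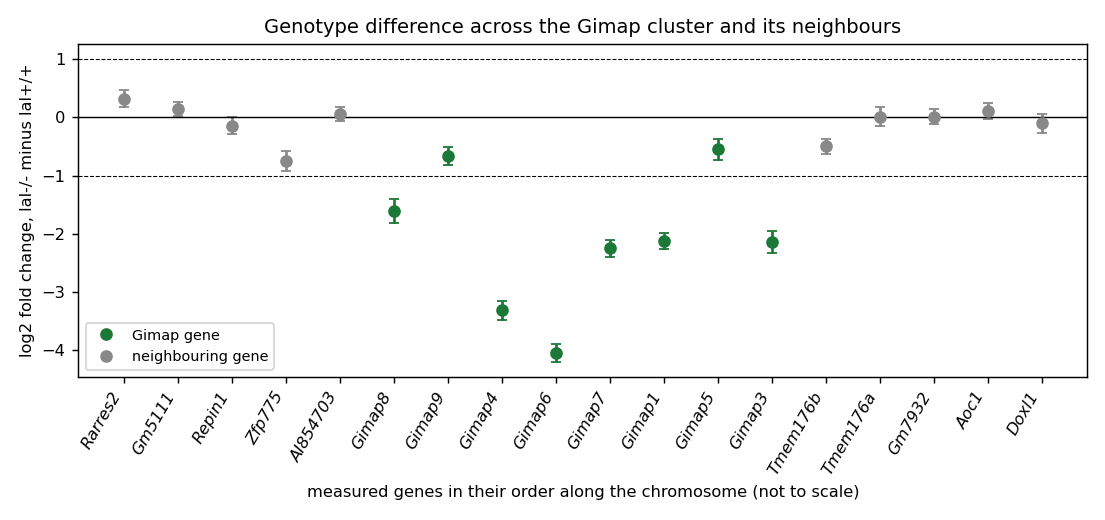
Log2 fold change (*lal-/-* minus *lal+/+*) of the 8 Gimap genes and of the 5 measured genes on each side, in their order on chromosome 6, with the standard error of the fit as bars. Dashed lines mark a fold of 2. *Gimap9* and *Gimap5* lie near the neighbouring genes, and the other 6 members lie below the line.

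Gimap genes are expressed by lymphocytes and other blood cells, and endothelial cells express some of them, so the markers of these cells were read beside the family. Most B cell markers fell. Of 15 measured markers 14 were called lower and the remaining 1 did not pass (beside 3.24% of all genes lower), the median of the list being -3.23 on the log2 scale, among them *Cr2* (-5.69), *Ms4a1* (-5.26), *Ebf1* (-4.25) and *Cd79b* (-3.95). *Cd79a*, of the B cell receptor, read 9.78 and 9.25 in *lal+/+* and 6.76 and 6.76 in *lal-/-*. The summed level of the list (log2 of the summed linear values) was 13.61 to 13.78 on the *lal+/+* arrays and 11.04 to 11.11 on the *lal-/-* arrays. *Cd37* (0.07) did not pass.

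T cell markers were mixed. Of 18 measured markers 5 were called lower, 1 was higher and 12 did not pass, with a median of -0.59. The lower ones were *Cd2* (-4.40), which B cells also express, *Cd3g* (-2.01), the adaptor *Lat* (-1.63), *Cd3e* (-1.28) and *Cd28* (-1.22). *Cd3d*, of the same receptor complex as *Cd3e* and *Cd3g*, was higher (2.42, adjusted p = 6.64e-05 from limma), at 10.37 and 10.25 in *lal+/+* and 12.74 and 12.72 in *lal-/-*. *Zap70*, the kinase of T cell receptor signaling, was at background level in both genotypes. *Cd8b1* (-0.97), *Cd4* (-0.64) and *Cd5* (-0.55) passed the adjusted p (0.00133, 0.0375 and 0.0350 in limma) without reaching a fold of 2. *Cd8a* (-0.40) passed neither threshold. The adjusted p was under 0.05 for 11 of the 18 markers. The summed level of the list was 12.59 to 12.62 in *lal+/+* and 13.01 to 13.03 in *lal-/-*. Without *Cd3d*, the 1 marker called higher, it was 12.28 on both *lal+/+* arrays and 10.53 to 10.58 on the *lal-/-* arrays. Of the remaining markers *Cd2* had the highest level in *lal+/+* (11.00 and 10.94), so it weighs most in that sum. In *lal+/+* cells 5 of the 18 markers were at background level, and *Cd4*, at 6.73 and 6.88, and *Cd8a*, at 6.63 and 6.94, lay close to its limit.

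Of 11 NK cell markers 2 were called lower, *Gzma* (-2.31) and *Klrd1* (-1.77). *Nkg7* went the other way (0.87, adjusted p = 0.00472 in limma) without reaching a fold of 2. The defining receptor gene *Ncr1* was at background level in both genotypes, and the median of the list was -0.12. The summed level was 10.03 to 10.16 in *lal+/+* and 9.55 to 9.65 in *lal-/-*. Of 11 endothelial markers 9 were at background level in *lal+/+* cells, *Cdh5* and *Kdr* among them. Only *Pecam1*, which leukocytes express as well, was lower (-1.39), and the summed level was 10.19 to 10.21 and 9.67 to 9.77. Monocyte and macrophage markers were lower for 10 of 13 measured genes, with a median of -1.97, led by *Mrc1* (-4.54), *Spic* (-4.21) and *Vcam1* (-3.73). The receptor gene *Csf1r* was among them (-1.43), as were the complement genes *C1qb* (-1.97) and *C1qc* (-2.78). Their partner *C1qa* (-0.87) passed the adjusted p (0.00336 in limma) without reaching a fold of 2. *Ccr2*, of the same list, went the other way (0.83, adjusted p = 0.0160 in limma). It did not reach a fold of 2 and was at background level in *lal+/+* cells. The summed level of this list was 12.95 to 13.07 in *lal+/+* and 10.98 to 11.00 in *lal-/-*. Neutrophil markers went the other way, with 8 of 14 higher (beside 7.56% of all genes) and *Csf3r* lower (-1.91), and with a summed level of 15.98 to 16.02 against 16.72 to 16.73. Of the remaining marker lists, plasma cells had 3 of 7 genes lower, dendritic cells 1 of 8 (*Itgax*, -1.98), and stem and progenitor cells 1 of 8 higher (*Kit*, 1.23). Megakaryocytes had 1 of 4 higher (*Ppbp*, 1.22), and eosinophils, basophils and mast cells 2 of 6 higher (*Mcpt8*, 1.53, and *Prg2*, 1.44). Of 6 erythroid genes 0 were called with limma, and 3 had an unadjusted p under 0.05. Of these, *Tfrc* (0.72) and *Alas2* (-0.66) also passed the adjusted p (0.00439 and 0.0122 in limma) without reaching a fold of 2. The summed level of the Gimap genes themselves was 11.88 to 11.91 in *lal+/+* and 9.78 to 9.94 in *lal-/-*. According to the methods, most cells were Ly6G+ after the selection. The part of a change in the mixture of cells in the lower Gimap levels was not tested.

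Of 11 measured genes with known links to Gimap proteins 1 was lower, 2 were higher and 8 did not pass, with a median of 0.40. The survival gene *Bcl2* was lower, at 8.67 and 8.65 in *lal+/+* and 6.67 and 6.81 in *lal-/-* (-1.92, adjusted p = 1.22e-04 from limma), while *Bak1*, which promotes cell death, was higher (1.41). *Gabarapl2*, the autophagy partner of Gimap6, was higher as well, at 9.26 and 9.15 against 10.34 and 10.35 (1.15, adjusted p = 6.83e-04 from limma). *Gabarap* (0.86) and *Map1lc3b* (0.62) passed the adjusted p (0.00212 and 0.00834 in limma) without reaching a fold of 2. *Mcl1* (-0.10), *Bcl2l1* (0.40), *Hspa8* (-0.02) and *Gsk3b* (0.38), the kinase restrained in *Gimap5*-dependent T cell survival, did not pass.

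Of 11 genes of lymphocyte quiescence, survival and recirculation 5 were lower, 2 were higher and 4 did not pass, with a median of -0.69. The egress receptor *S1pr1* (-3.50), *Foxp1* (-1.86), *Ccr7* (-1.56), *Il7r* (-1.41) and *Foxo1* (-1.40) were lower. *Slfn2* (1.04) and *Tob1* (1.03), both linked to quiescence, were higher, and *Klf2* (-0.22) did not pass. Of 13 transcription factors 2 were lower, *Ikzf3* (-3.98) and *Lef1* (-1.16), 1 was higher, *Spi1* (1.25), and 10 did not pass. Those that did not pass include *Ets1* (-0.46, adjusted p = 0.0257 in limma, short of a fold of 2), *Runx1* (0.38) and *Runx3* (-0.11). These genes and *Spi1* belong to the ETS and RUNX families, whose letters were found upstream of some members. The median of this list was 0.24.

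Other families of GTPases of immune cells and of related structure did not all move with the Gimap genes. Of 7 measured guanylate-binding protein genes 5 were lower, with a median of -1.18, led by *Gbp8* (-3.20), *Gbp2b* (-2.67) and *Gbp9* (-2.18). The septins, which share the fold of their GTP-binding domain with Gimap proteins, had 3 of 11 genes higher, *Septin10* (1.49), *Septin9* (1.17) and *Septin1* (1.07), while 8 did not pass, with a median of 0.48. Of 7 Mx and dynamin genes 0 were called with limma (median 0.04), and 1 of them, *Opa1* (0.57), had an unadjusted p under 0.05. *Opa1* also passed the adjusted p (0.0498 in limma) without reaching a fold of 2. Of the immunity-related GTPases only *Irgm1* (0.28) and *Iigp1* (0.06) were measured, neither of which passed (0 with an unadjusted p under 0.05 from limma). The differences between these families and the Gimap genes were not tested.

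**Figure D4:**
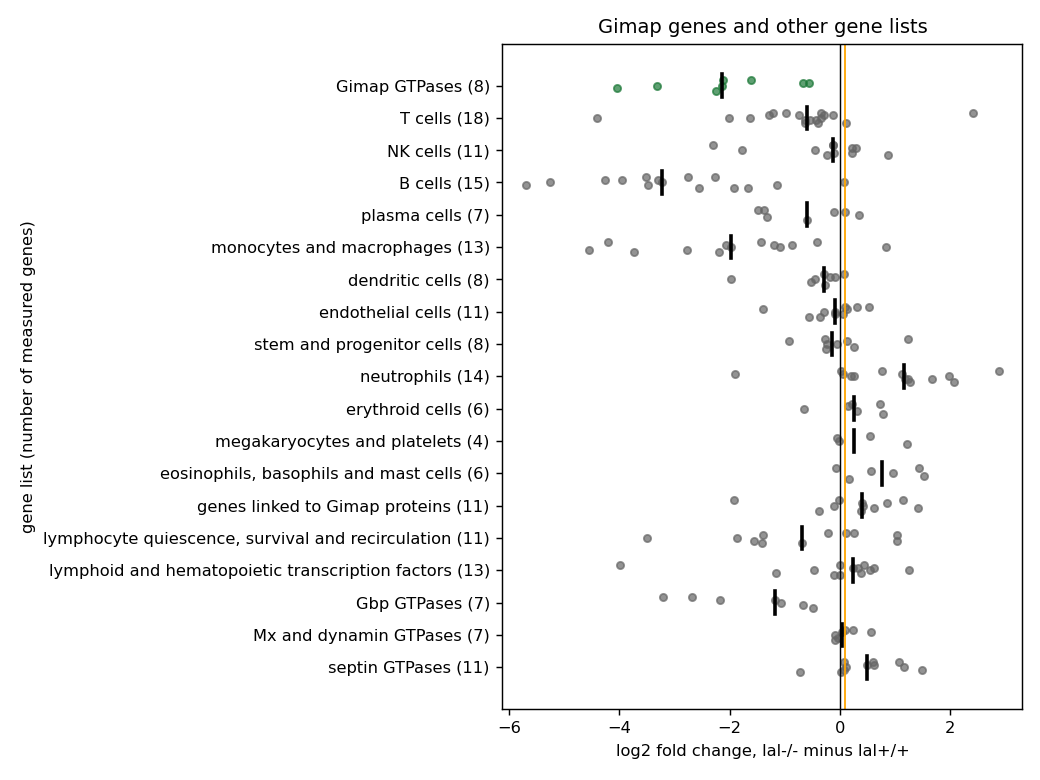
Log2 fold change (*lal-/-* minus *lal+/+*) of each measured gene in the Gimap family and in the other gene lists (the 2 immunity-related GTPases are not drawn), with the median of each list as a black bar and the median of all genes as an orange line. The Gimap genes (median -2.13) lie between the B cell markers (-3.23) and the monocyte and macrophage markers (-1.97), and the septins (0.48) and neutrophil markers (1.16) lie on the other side of 0.

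The genes most like the family were those whose levels on the 4 arrays, each centred on the mean of its gene, differed least from the mean centred levels of the members. The nearest were *Ctss*, a lysosomal protease of antigen presentation (root mean square difference 0.03 on the log2 scale), *Fyn*, a Src family kinase of lymphocytes (0.04), *Hmox1*, a heme oxygenase (0.04), *Cadm1*, an adhesion protein (0.04), *Il1b*, an inflammatory cytokine (0.05), and *DQ267102* (0.05). Their log2 fold changes lay between -2.13 and -1.99. With 2 arrays of each genotype, likeness of this kind rests almost wholly on the size of the genotype difference.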

How the data were processed

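Total RNA of bone marrow MDSCs was hybridized to 4 Affymetrix Mouse Gene 1.0 ST arrays, 2 for each genotype. The deposited values are log2 RMA values per probe set, which the authors made in Partek Genomics Suite. The submitters' processing notes also name GCOS 1.1. The column medians of the deposited values differed by up to 0.21, and the arrays were therefore quantile normalized here.

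Of 35557 probe sets 21789 named 1 gene in the platform annotation. They were fitted with a genotype term in limma 3.58.1 (R 4.3.3) with moderated variances, 1621 that name several genes were left out, and 12147 were not listed. For 999 genes with several probe sets the brightest was kept, which gave 19938 genes. P-values were adjusted after Benjamini-Hochberg. Genes were called at adjusted p-values below 0.05 and a fold of 2 or more. With 2 arrays against 2, an exact two-sided permutation test cannot go below p = 0.333, and the limma p-values rest on variances shared across genes. The number of arrays limits the precision, and p-values measure only the spread between these arrays.

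The members and the gene lists were chosen with earlier results of these data known. Of each list up to 4 called genes in each direction, and a few defining markers, were named by rule, and the other list genes named were picked after their values were seen. List genes without a probe set of their own, such as *Lck*, were not analysed here. The fit was also run on simulated data with fewer changed genes than were called here. That run does not test the scaling of these arrays. Promoter windows came from RefSeq (GRCm38.p6). Alternatives were other scalings, filters, variance models and thresholds, a replicate block, and each array left out.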

Additional observations from a re-analysis of the deposited data

How the results depend on the processing

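Directions held in every setting for the median of the Gimap genes, which was -1.91 with the arrays shifted to a common median and ranged from -2.31 (without *lal+/+* replicate 2) to -1.96 (without *lal-/-* replicate 1) when 1 array was left out. The count of Gimap genes called lower, from which nothing is read since they were chosen on these values, was 6 in each of these fits and 0 in an ordinary linear model without moderated variances, in which 0 genes of the whole table were called and 5691 had an unadjusted p under 0.05. In a fit with 1 array in a group, that array is assumed to vary like those of the other genotype. Without the fold threshold 7 Gimap genes were called, with *Gimap9* added, 2 genes next to the cluster were called, and the T cell markers called lower went from 5 to 10. In that setting 5901 of all 19938 genes were called, 1963 of them lower, so nothing is read from these counts. With a replicate block 6 Gimap genes were called lower and the median stayed at -2.13. Same-numbered arrays deviated from their genotype means with r = -0.16 over all probe sets. With 2 pairs of arrays this cannot show whether they were handled together. The crossed pairing, chosen after seeing the data, also gave 6. The cause of these changes was not tested, and levels at or near the background limit restrict every member but *Gimap9* in *lal-/-* cells.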
